A study of Mus musculus with 6 samples.

Results

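The CC chemokines examined here are 10 genes chosen by name as the ligands of this family that activated mouse macrophages make: Ccl2, Ccl7, Ccl12, Ccl8, Ccl3, Ccl4, Ccl5, Ccl6, Ccl9 and Ccl22. All 10 were among the 15415 genes listed in the expression table, and all 10 were among the 9030 genes that reached a mean of at least 1 FPKM (a read level divided by gene length and by library depth) in at least 1 group. RNA sequencing was done on starch-elicited peritoneal macrophages (PEMs), cells recruited to the peritoneum by injected starch, and every library came from cells given the bacterial product LPS. The knockout group, LysM-Cre; Tim-4 fl/fl, has loxP sites in both copies of the gene for Tim-4 (Timd4) and a Cre recombinase driven from the lysozyme locus Lyz2, which is active in myeloid cells. The control group, Tim-4 fl/fl, has the same loxP sites and no Cre, so presence of Cre and loss of Tim-4 cannot be told apart. The mice were young males on the C57BL/6J background. Each group had 3 libraries, grouped by their titles; the genotype entries of the labels read the other way round. Nothing in the labels says whether the libraries came from separate animals, so the p-values measure the spread between these libraries, which may be technical. All groups were stimulated, so no value here describes resting cells.

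Chemokines are small secreted proteins that attract leukocytes through receptors with several membrane-spanning helices, and the CC family is named for a pair of adjacent cysteines near the start of the mature protein. Macrophages that sense LPS through Tlr4 switch on many CC chemokine genes by way of NF-kB and interferon-regulated factors. Ccl2, Ccl7, Ccl12 and Ccl8 are monocyte chemoattractant proteins (MCPs), of which the first 3 act on the monocyte receptor Ccr2. Ccl3 and Ccl4 are the MIP-1 pair. Ccl3, Ccl5, Ccl6 and Ccl9 act on Ccr1, and Ccl22 attracts Ccr4-bearing T cells, regulatory T cells among them.

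The family resemblance, and the extent to which members can be told apart in sequencing, is seen in the coding sequences. Shown here are 48 coding (exonic) bases around the cysteine pair of the 4 MCP genes and the MIP-1 pair, all on chromosome 11, from GENCODE release M21 transcripts (build GRCm38), in sense orientation with the 2 cysteine codons in capitals.
Ccl2: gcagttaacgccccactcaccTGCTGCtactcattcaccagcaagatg
Ccl7: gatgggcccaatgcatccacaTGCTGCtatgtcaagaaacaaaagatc
Ccl12: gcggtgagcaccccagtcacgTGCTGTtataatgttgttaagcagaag
Ccl8: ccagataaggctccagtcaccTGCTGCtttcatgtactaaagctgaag
Ccl3: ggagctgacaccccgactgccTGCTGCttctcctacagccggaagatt
Ccl4: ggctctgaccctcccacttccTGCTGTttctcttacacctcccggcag
The pair lies at codon 34 of Ccl2, Ccl3 and Ccl4, at codon 33 of Ccl7 and Ccl12 and at codon 32 of Ccl8, and each of the 10 coding sequences has 1 such pair after codon 20. Over the 45 pairs of members, aligned coding sequences were 41.3% to 68.4% identical, with Ccl3 and Ccl4 the closest pair and Ccl12 and Ccl8 (65.4%) next. The longest run of identical bases in any pair of transcripts was 25, between Ccl6 and Ccl9. The genes sit in 2 runs on chromosome 11 (Ccl2, Ccl7, Ccl11, Ccl12, Ccl8 and Ccl1 are consecutive, as are Ccl5, Ccl9, Ccl6, Ccl3 and Ccl4), and Ccl22 is on chromosome 8. In RefSeq, the gene models of Ccl3 and Ccl4 overlap, Ccl5 overlaps the lncRNA gene Gm32650 and Ccl6 overlaps the lncRNA gene E230016K23Rik, so reads may have been split between those partners in a way that is uncertain here.

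Of the 10 members, 3 rose in knockout PEMs and none fell at an adjusted p under 0.05 (limma, Benjamini-Hochberg over all 9030 genes). The 3 were Ccl2, Ccl7 and Ccl12, all ligands of Ccr2, at 3.80, 3.50 and 3.93 times the control mean. Among all tested genes 2.57% were called higher and 4.74% lower. The other 7 members did not pass. At an unadjusted p under 0.05, 5 members were higher and 0 lower, where 9.93% of all tested genes were higher and 17.7% lower. With limma's voom on read counts, which here also rescaled the libraries by the median of ratios, 4 were called higher, against 3.3% of tested genes, and 0 lower. In 9 of 10 members the log2 difference was positive, and the median over the members was 0.50, against -0.11 over all tested genes. All 3 knockout libraries lay above all 3 control libraries in 4 members, against 11.1% of all tested genes, and 0 members lay wholly below, against 23.0%. The study had itself picked Ccl2, Ccl7, Ccl12 and Ccl4 for a heat map made from these libraries, so their direction is not independent evidence. All 10 members were chosen with earlier results of these data known, so the counts set beside all tested genes are descriptive only.

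**Figure D1:**
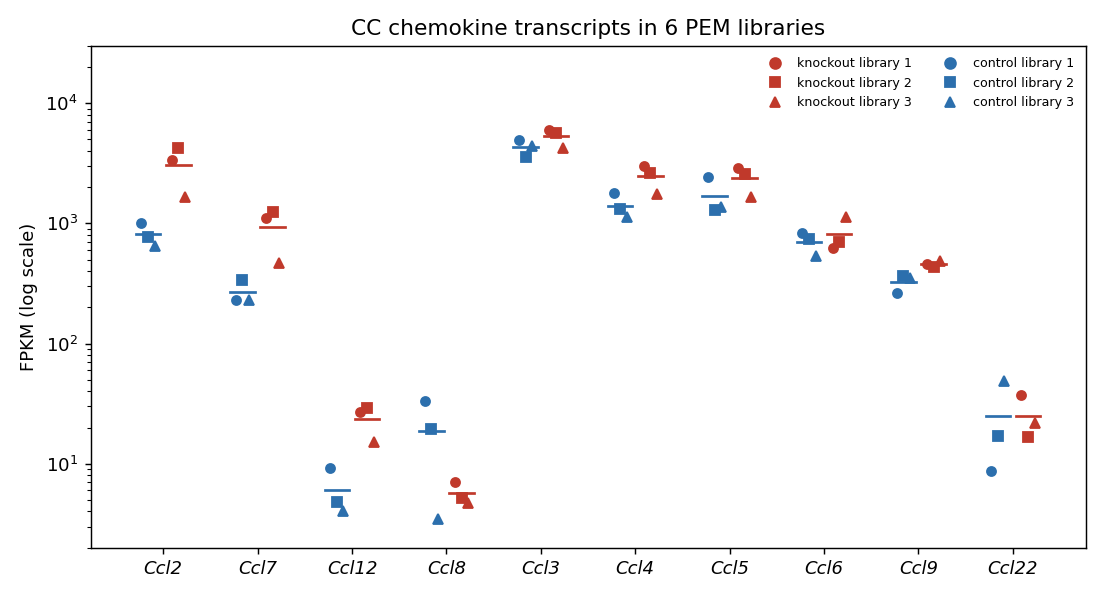
FPKM of the 10 CC chemokines in each library on a log10 axis, 1 point per library with knockout and control PEMs side by side and a bar at each group mean. The knockout points of Ccl2, Ccl7, Ccl12 and Ccl9 lie above all control points, while the control points of Ccl8 and Ccl22 are spread over 9.57 and 5.61 times from lowest to highest.

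Ccl2 (MCP-1), the chief attractant of Ccr2-bearing monocytes, was at 3391, 4226 and 1649 FPKM in knockout libraries 1, 2 and 3, against 1016, 773 and 649 FPKM in control libraries 1, 2 and 3. The lowest knockout library, number 3, was still above the highest control library. The means were 3089 ± 1315 and 813 ± 187 FPKM (SD, n = 3 each), a log2 difference of 1.84 on the log2(FPKM + 1) scale (SE 0.35, 95% interval 1.02 to 2.67, adjusted p = 0.0285 by limma). In abundance Ccl2 moved from place 50 to 72 among all listed genes in the control libraries to place 10 to 27 in the knockout libraries.

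Ccl7 (MCP-3), its immediate neighbour on chromosome 11, was at 1109, 1234 and 465 FPKM in the knockouts, against 230.2, 340.3 and 231.6 FPKM in the controls. The groups again did not overlap, and knockout library 3 was again the lowest of its group. The difference was 1.71 on the log2 scale (SE 0.37, 95% interval 0.83 to 2.59, adjusted p = 0.0397 by limma), between means of 936 ± 412.5 and 267 ± 63.2 FPKM (SD, n = 3 each).

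Ccl12 (MCP-5), a mouse ligand of Ccr2, followed the same order at a far lower level, with 27.0, 28.9 and 15.0 FPKM in the knockout libraries and 9.12, 4.84 and 4.07 FPKM in the controls. Knockout library 3 was lowest among the knockouts for all 3 genes, and no control library reached it. The log2 difference was 1.83 (SE 0.33, 95% interval 1.06 to 2.60, adjusted p = 0.0245 by limma), between means of 23.6 ± 7.49 and 6.01 ± 2.72 FPKM (SD, n = 3 each). These levels rest on 79 to 653 reads per library, against 18924 to 143818 for Ccl2.

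The calls on these 3 genes were sensitive to single libraries although their direction was not. Without knockout library 1 the adjusted p was 0.115 for Ccl2, 0.152 for Ccl7 and 0.104 for Ccl12. Without knockout library 2 it was 0.108, 0.155 and 0.108, and without control library 2 it was 0.128, 0.123 and 0.123, in the same gene order. Ccl7 also missed the threshold without control library 1 (adjusted p = 0.0638). The log2 differences stayed between 1.56 and 2.24 for Ccl2, 1.45 and 2.15 for Ccl7, and 1.63 and 2.13 for Ccl12 when 1 library was left out. With no filter on low values the adjusted p was 0.0634, 0.0761 and 0.0515. Over all the alternatives run, adjusted p ranged from 0.0109 to 0.128 for Ccl2, from 0.0109 to 0.155 for Ccl7 and from 0.0142 to 0.123 for Ccl12.

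**Figure D2:**
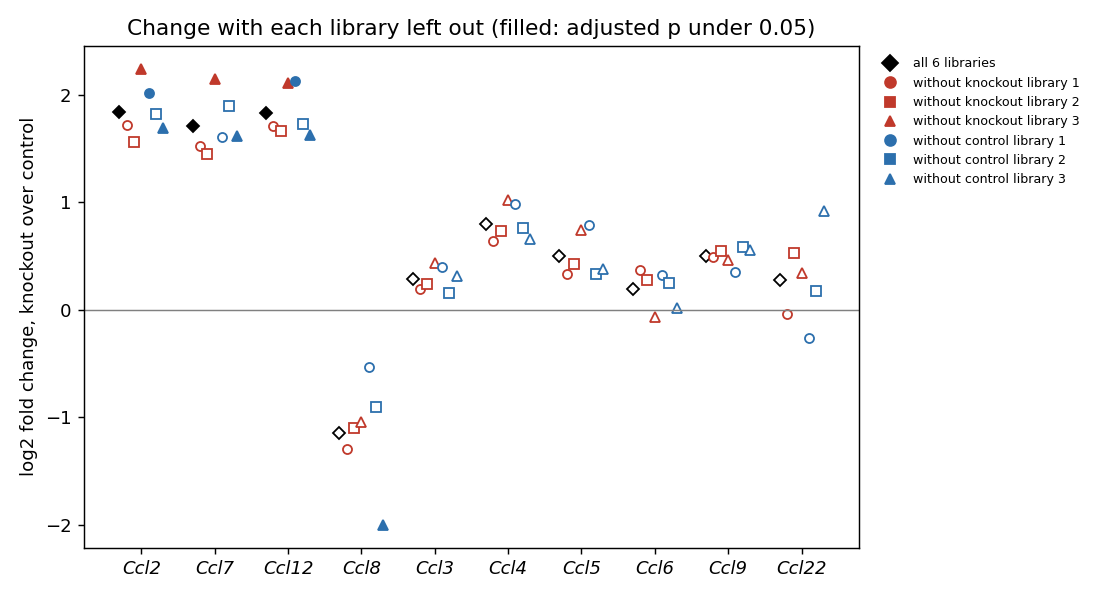
Log2 difference between knockout and control PEMs (log2(FPKM + 1) scale) for each CC chemokine with all 6 libraries (diamonds) and with each library left out in turn, filled where the adjusted p is under 0.05. The values of Ccl2, Ccl7 and Ccl12 are all at 1.45 or above, those of Ccl8 range from -2.003 to -0.54, and those of Ccl6 and Ccl22 lie on both sides of 0.

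Ccl8 (MCP-2) was the exception within the MCP genes. It was at 7.08, 5.19 and 4.69 FPKM in the knockouts, against 33.1, 19.3 and 3.46 FPKM in the controls. Control libraries 1 and 2 were far above the knockouts and control library 3 was below all of them, so the groups overlapped. The log2 difference was -1.15 (SE 0.67, 95% interval -2.73 to 0.43, adjusted p = 0.306 by limma), and the interval includes both no change and a large fall. With control library 3 left out the fall was larger, at -2.003 (adjusted p = 0.00506), where 8.93% of all genes tested in that fit were called lower; over all alternatives its adjusted p ran from 0.00506 to 0.558. Ccl8 rests on 64 to 668 reads per library.

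Ccl12 and Ccl8 are neighbours on chromosome 11 with the second most alike coding sequences, yet Ccl12 rose and Ccl8 had the lowest difference of the 10 members. Their RefSeq promoters (build GRCm38.p6, plus strand, 250 bases before to 50 after the start) are printed because these are the only MCP promoters in the table used here, with TATAAA in capitals; the first is chr11:82101595-82101894 and the second chr11:82114935-82115234.
Ccl12: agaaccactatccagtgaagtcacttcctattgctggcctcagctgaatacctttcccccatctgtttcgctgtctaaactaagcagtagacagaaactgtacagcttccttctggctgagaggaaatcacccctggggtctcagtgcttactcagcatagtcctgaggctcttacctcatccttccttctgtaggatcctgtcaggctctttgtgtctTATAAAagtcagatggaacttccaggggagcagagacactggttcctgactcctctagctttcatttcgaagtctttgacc
Ccl8: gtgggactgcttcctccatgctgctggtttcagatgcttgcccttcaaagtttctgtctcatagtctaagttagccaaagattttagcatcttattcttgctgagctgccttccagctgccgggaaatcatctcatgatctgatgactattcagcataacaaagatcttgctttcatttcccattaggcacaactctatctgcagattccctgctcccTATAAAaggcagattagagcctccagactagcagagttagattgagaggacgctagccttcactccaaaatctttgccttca
The aligned promoters were 54.9% identical, the highest value among the 15 pairs of the 6 members with a promoter sequence (Ccl12, Ccl8, Ccl3, Ccl6, Ccl9 and Ccl22). TATAAA begins at base -31 in Ccl12 and at base -32 in Ccl8 counted from the start site. Searched on both strands, TATAAA was found in 3 of the 6 member promoters and in 14.2% of all 27025 promoters. The NF-kB consensus was found in 1 of 6 (Ccl9) against 8.18% of all promoters, and the AP-1 core TGANTCA likewise in 1 of 6 (Ccl9) against 7.93%. The interferon-stimulated response element GAAANNGAAA (3.49% of all promoters) and the GAS element TTCNNNGAA (8.47%) were in 0 of 6. These matches describe letters in a window of 300 bases and not binding. Ccl2, Ccl7, Ccl4 and Ccl5 had no entry.

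Ccl3 (MIP-1 alpha) was the most abundant member in every library. It was at 6039, 5609 and 4274 FPKM in the knockouts, against 4968, 3579 and 4450.1 FPKM in the controls, placing it between place 3 and place 10 among all listed genes. Knockout library 3 fell inside the control range, and the log2 difference of 0.29 (SE 0.19, 95% interval -0.15 to 0.74, adjusted p = 0.352 by limma) did not pass.

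Ccl4 (MIP-1 beta) was at 2991, 2649 and 1756 FPKM in the knockouts, against 1775, 1312 and 1133 FPKM in the controls. Control library 1 was just above knockout library 3, and no other control library reached a knockout one. The log2 difference was 0.80 (SE 0.25, 95% interval 0.21 to 1.38, adjusted p = 0.0944 by limma), with a knockout mean 1.75 times the control mean. With the replicate number as a block the adjusted p was 0.0314, where 3.9% of all tested genes were called higher and 5.57% lower. Whether equal numbers are true pairs is not known. Knockout over control was 1.69, 2.02 and 1.55 for replicate numbers 1, 2 and 3. Over all alternatives the adjusted p of Ccl4 ran from 0.0314 to 0.300.

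Ccl5 (RANTES), a chemokine that T cells and NK cells also make, was at 2899, 2554 and 1654 FPKM in the knockouts, against 2427, 1292 and 1380.3 FPKM in the controls. Control library 1 lay within the knockout range, and the log2 difference of 0.50 (SE 0.30, 95% interval -0.21 to 1.21, adjusted p = 0.319 by limma) did not pass. The summed level of 7 measured T cell and NK cell markers was 1.13 to 1.94 FPKM in the knockout and 2.81 to 11.1 FPKM in the controls, and their part in the Ccl5 level was not tested. Cd2 was the largest part of the control sums and fell (log2 difference -1.89, adjusted p = 0.0326), while Lck overlapped between the groups (-0.084, adjusted p = 0.825) and the T cell receptor complex genes Cd3e, Cd3d and Cd3g were each at most 0.468 FPKM.

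Ccl6 and Ccl9, rodent ligands of Ccr1 that myeloid cells make, differed in how their libraries were ordered. Ccl9 was at 463, 430.5 and 484 FPKM in the knockouts, against 264, 366 and 352 FPKM in the controls. Its knockout libraries were the tightest group of any member (coefficient of variation 5.88%) and all lay above the controls. The log2 difference of 0.50 (SE 0.16, 95% interval 0.13 to 0.87, adjusted p = 0.0979 by limma) missed the threshold. It was 0.65 with an adjusted p of 0.0411 after rescaling the libraries by the median of ratios (3.8% of tested genes called higher). With voom on the read counts, which used the same rescaling, it was 0.65 with an adjusted p of 0.0462 (3.3% called higher). The adjusted p of Ccl9 ranged from 0.0411 to 0.275 over all alternatives.

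Ccl6 was at 622, 702 and 1131 FPKM in the knockouts, against 824, 742 and 539 FPKM in the controls. Library 3 was the highest of the knockouts and the lowest of the controls, the opposite of what knockout library 3 showed for Ccl2, Ccl7, Ccl12, Ccl8, Ccl3, Ccl4 and Ccl5. The log2 difference was 0.19 (SE 0.26, 95% interval -0.42 to 0.81, adjusted p = 0.659 by limma), and without knockout library 3 it was -0.064.

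Ccl22 (MDC), a ligand of Ccr4 that dendritic cells and some macrophages make, was at 37.2, 16.6 and 21.7 FPKM in the knockouts, against 8.67, 16.9 and 48.7 FPKM in the controls. The lowest and the highest of all 6 libraries were both controls, and the means differed little, at 25.2 ± 10.8 for the knockouts and 24.7 ± 21.1 FPKM for the controls (SD, n = 3 each). The log2 difference was 0.28 (SE 0.58, 95% interval -1.08 to 1.63, adjusted p = 0.783 by limma), an interval that reaches past a 2-fold change in both directions. Leaving out control library 1 gave -0.26 and leaving out knockout library 1 gave -0.036. Of 8 dendritic cell markers, Flt3, Zbtb46, Xcr1, Clec9a and Cd209a were each at most 0.373 FPKM in every library and Kmo at most 1.33 FPKM, while Clec10a was at 10.9 to 22.8 FPKM and Ccr7 at 2.33 to 10.5 FPKM. Their part in the Ccl22 level was not tested.

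**Figure D3:**
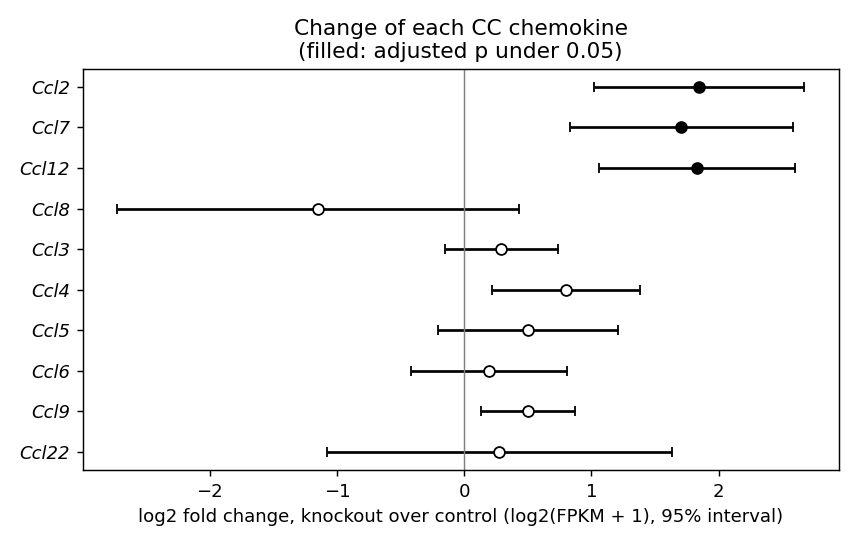
Log2 difference between knockout and control PEMs (log2(FPKM + 1) scale) for the 10 CC chemokines, with 95% intervals from limma. The intervals of Ccl2, Ccl7, Ccl12, Ccl4 and Ccl9 lie above 0, and those of Ccl2, Ccl7 and Ccl12 belong to the members with an adjusted p under 0.05.

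The order of the levels also differed between the groups. In control PEMs Ccl3 came first, then Ccl5 and Ccl4, then Ccl2 and Ccl6, then Ccl9 and Ccl7, and last Ccl22, Ccl8 and Ccl12, where members joined by "and" had overlapping ranges over the 3 libraries and neighbours across a step did not. In knockout PEMs Ccl2 had the second highest mean behind Ccl3 and overlapped with Ccl4 and Ccl5. The range of Ccl7 then overlapped with those of Ccl6 and Ccl9, Ccl22 overlapped with Ccl12, and Ccl8 was lowest. As parts of the summed FPKM of the 10 members, Ccl2 took 19.3%, 24.2% and 14.4% in the knockout libraries and 8.79%, 9.15% and 7.38% in the controls. Ccl3 took 34.3%, 32.1% and 37.3% in the knockouts and 43.0%, 42.4% and 50.6% in the controls. Ccl4 and Ccl5 kept means of 15.8% and 15.2% in the knockouts against 14.6% and 17.3% in the controls. Reads on the 10 genes made up 1.43%, 1.43% and 1.02% of the reads on listed genes in the knockout libraries and 0.941%, 0.749% and 0.763% in the controls.

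**Figure D4:**
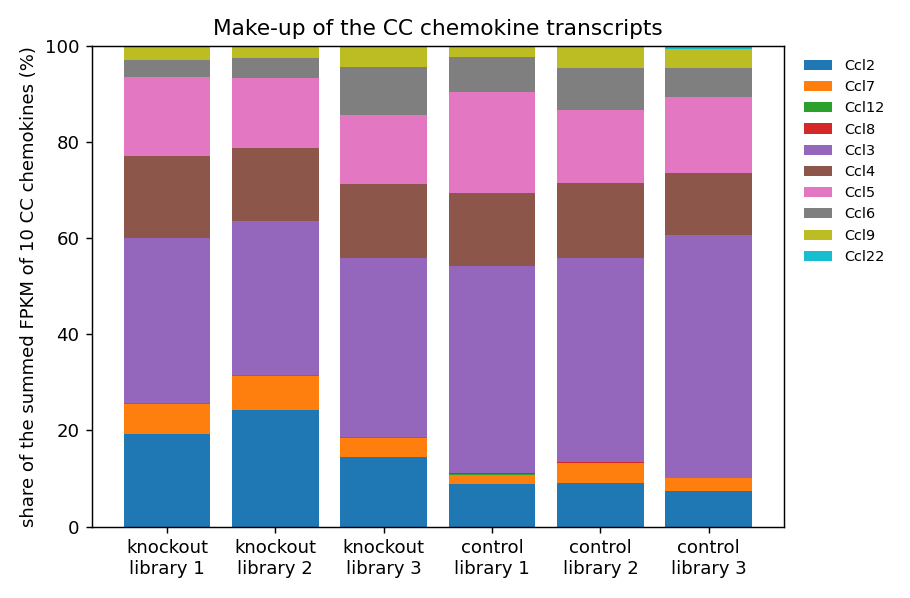
Share of each member in the summed FPKM of the 10 CC chemokines, in percent, 1 stacked bar per library. Ccl3 is the largest share in all 6 bars, and the Ccl2 share is 14.4% to 24.2% in the knockout bars against 7.38% to 9.15% in the control bars.

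Ratios within a library do not depend on how libraries were scaled to each other, and 9 of them were compared. With 3 libraries against 3 the two-sided exact permutation test cannot go below p = 0.1, so none could pass, and the adjusted value over the 9 ratios was 0.3 at best. The MCP genes together over Ccl3 plus Ccl4 gave 0.502, 0.665 and 0.354 in the knockout libraries and 0.191, 0.233 and 0.159 in the controls. Every knockout ratio was above every control ratio, 2.56-fold higher in geometric mean (log2 difference 1.35, exact permutation p = 0.1, adjusted 0.3). With geometric means in place of both sums, that of the 4 MCP genes over that of Ccl3 and Ccl4, the log2 difference was 0.54. In that form Ccl8 weighs as much as Ccl2. Ccl2 over Ccl8 was 479, 814 and 352 in the knockouts and 30.7, 39.9 and 187 in the controls (log2 difference 3.07, exact permutation p = 0.1, adjusted 0.3). Ccl3 over Ccl4 was 2.02, 2.12 and 2.43 in the knockouts and 2.80, 2.73 and 3.93 in the controls, lower in all 3 knockouts (log2 difference -0.51, exact permutation p = 0.1, adjusted 0.3). The other 6 ratios overlapped between the groups: Ccl2 over Ccl12 differed by -0.16 and Ccl2 over Ccl7 by 0.13 on the log2 scale, with exact permutation p of 0.5 and 0.7.

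Ccl8 and Ccl22, the members with the widest control spread, ran in opposite directions over the control libraries. Ccl8 was highest in control library 1 and lowest in control library 3, and Ccl22 the reverse. Ccl24 (eotaxin-2), a Ccr3 ligand of the same family and no member, followed Ccl8, with 18.1, 11.0 and 4.46 FPKM in control libraries 1, 2 and 3. Timd4 itself did so with 19.5, 12.0 and 1.19 FPKM, and so did the alternatively activated macrophage gene Retnla with 3428, 1507 and 98.5 FPKM. The summed level of 7 measured B cell markers did likewise, with 124, 85.4 and 30.8 FPKM, with Cd79a at 57.6, 33.7 and 15.3 FPKM. Other genes looked at here ran as Ccl22 did. Ly6c2, a monocyte gene, was at 5.42, 14.9 and 32.5 FPKM in control libraries 1, 2 and 3, and Ccr7 at 7.40, 8.46 and 10.5 FPKM. Their part in the levels of Ccl8 and Ccl22 was not tested, and in bulk RNA fewer cells of a type and less RNA per cell cannot be told apart.

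**Figure D5:**
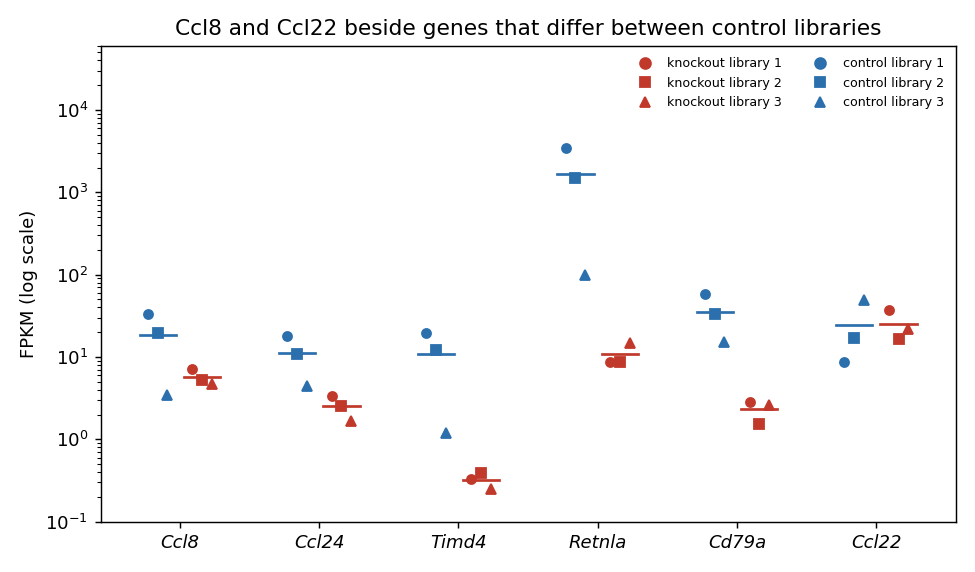
FPKM on a log10 axis of Ccl8, Ccl22, Ccl24, Timd4, Retnla and, for the B cell markers, the B cell gene Cd79a, 1 point per library and a bar at each group mean. In the controls Ccl8, Ccl24, Timd4, Retnla and Cd79a are highest in library 1 and lowest in library 3, while Ccl22 is at 8.67 FPKM in library 1 and 48.7 FPKM in library 3.

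Of 14 further CC ligand genes, 4 were listed and 1, Ccl24, was abundant enough to test, while the 10 others were not analysed here. It was at 3.33, 2.56 and 1.68 FPKM in the knockouts, below all controls, with a log2 difference of -1.64 (SE 0.43, adjusted p = 0.0634 by limma). Thus 0 of these ligands were called, with 1 at an unadjusted p under 0.05 and 0 by voom. With the replicate block the adjusted p of Ccl24 was 0.0185 and without control library 3 it was 0.00482, in a range of 0.00482 to 0.207 over all alternatives. Ccl17, a Ccr4 ligand like Ccl22, stayed under 1.2 FPKM in every library, and the gut and thymus chemokine Ccl25 under 0.4 FPKM.

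Of 14 CC chemokine receptors, 10 were listed, 4 were tested and 1 rose. That was Ccrl2, an atypical receptor that binds the chemoattractant chemerin without signalling, at 590.5, 592 and 536 FPKM in the knockouts and 340.0, 338 and 384 FPKM in the controls (log2 difference 0.69, SE 0.12, adjusted p = 0.0231 by limma). It missed the threshold without knockout library 1 (adjusted p = 0.114), knockout library 2 (0.125) or control library 2 (0.0986), in a range of 0.0113 to 0.125. Ccr1, the receptor for Ccl3, Ccl5, Ccl6 and Ccl9, was at 25.8, 24.3 and 21.6 FPKM against 15.3, 17.9 and 20.6 FPKM and did not pass (log2 difference 0.40, adjusted p = 0.137). Ccr7, the lymph node homing receptor, was at 5.82, 2.33 and 3.24 FPKM against 7.40, 8.46 and 10.5 FPKM (log2 difference -1.08, adjusted p = 0.0553) and did not pass either. Ccr2, the receptor of the 3 ligands that rose, was at most 0.375 FPKM in any library.

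Among 28 genes of the pathway by which LPS and interferon induce chemokines, all 28 were tested, 4 rose, 0 fell and 24 did not pass, against 2.57% and 4.74% of all tested genes. Irf1, an interferon-induced transcription factor, was at 187, 180 and 162 FPKM in the knockouts and 75.3, 65.6 and 76.7 FPKM in the controls (log2 difference 1.27, SE 0.13, adjusted p = 0.00651 by limma). Stat2, part of the factor that carries the type I interferon signal, rose by 1.26 (adjusted p = 0.0383), Irf5, a factor downstream of Toll-like receptors, by 0.78 (adjusted p = 0.0297), and Nfkbia, the NF-kB inhibitor that NF-kB itself induces, by 0.86 (adjusted p = 0.0355). After rescaling by the median of ratios, with voom, and with no filter on low values, 2 of the 4 were called, Irf1 and Irf5. None of the 28 was called without knockout library 1 or without control library 2, and 1 was without knockout library 2. The LPS co-receptor Cd14, which had the highest mean of the list over all 6 libraries though not over the knockouts, was at 346, 262 and 406 FPKM in the knockouts and 631, 554 and 484 FPKM in the controls (log2 difference -0.73, adjusted p = 0.0631). Without control library 3 it was called lower (-0.83, adjusted p = 0.0388). The NF-kB inhibitor Tnfaip3 differed by 0.26 (adjusted p = 0.413). Zfp36, whose product destabilises cytokine mRNAs, differed by 1.15 with an adjusted p of 0.082. That value was 0.0208 with the replicate block, 0.0474 without control library 1 and 0.0413 without knockout library 3.

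Of 7 macrophage markers, Adgre1, Cd68, Csf1r, Itgam and Cd14 were above 80 FPKM in every library, while Mertk was at 0.821 to 12.1 FPKM and Fcgr1 at 5.16 to 6.58 FPKM in the controls and 36.1 to 57.5 FPKM in the knockouts. Their summed level, of which Cd68 was the largest part, was 2621 to 2876 FPKM in the knockouts and 2194 to 2665 FPKM in the controls, and 1 of them, Fcgr1, rose while 0 fell. Csf1r, the receptor for the macrophage growth factor M-CSF, was at 88.7, 83.3 and 143 FPKM in the knockouts, below all controls at 179.6, 151 and 174 FPKM, and did not pass (log2 difference -0.71, adjusted p = 0.0903). Markers of several other cell types were lower in the knockouts: 6 of 6 tested B cell markers fell (summed level 3.25 to 6.17 against 30.8 to 124 FPKM), 5 of 6 mast cell markers (9.41 to 16.9 against 46.7 to 54.1 FPKM) and 4 of 5 large peritoneal macrophage markers (9.88 to 20.4 against 88.7 to 227 FPKM). Of the neutrophil markers 2 of 5 fell (79.7 to 105 against 185 to 213 FPKM), of the T cell and NK cell markers 1 of 2, and of the small peritoneal macrophage markers 2 of 8, with sums that overlapped (697 to 1593 against 1313 to 6653 FPKM) and Retnla a large part of the highest. Mesothelial and fibroblast markers (17.4 to 40.6 against 4.85 to 27.9 FPKM) ran the other way, with a positive difference in 6 of 7 tested (median log2 difference 0.97) and all knockouts above all controls for Col1a2 and Pdgfra. None of these 7 or of the 2 tested dendritic cell markers (17.5 to 26.4 against 24.6 to 30.1 FPKM) was called, and no eosinophil marker was abundant enough to test. No listed marker was at 0 in all 3 knockout libraries. The part of these shifts in the levels of Ccl2, Ccl7 and Ccl12 was not tested. Timd4, the targeted gene, was at 0.333, 0.394 and 0.246 FPKM in the knockouts (log2 difference -2.66, adjusted p = 0.0715), and Lyz2, the locus of the Cre, was at 41.4, 4656 and 106 FPKM in the knockouts and 7090, 7171 and 8482 FPKM in the controls (log2 difference -4.77, adjusted p = 0.103). Knockout library 2 had the most Lyz2 of the knockouts and the most Ccl2, Ccl7 and Ccl12. Knockout library 1 had the least Lyz2, yet more of these genes than knockout library 3. A link to Lyz2 was not tested. Rescaling moved the median log2 difference of all genes from -0.11 to 0.016 and the calls from 232 higher and 428 lower to 342 higher and 320 lower.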

How the data were processed

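Libraries were made from total RNA of LPS-treated PEMs, 3 per genotype. The authors deposited 1 table with FPKM per gene and library and, for each group, a mean normalised signal (counts divided by size factors). Alignment used mouse build mm9 per the submitters' processing notes. The aligner and counter versions are not given in the sources used here. The table's fold change, p and q columns hold the authors' own comparisons and were not used.

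FPKM was tested with limma 3.58.1 (R 4.3.3) on log2(FPKM + 1), two-sided, with a mean-variance trend, for genes with a mean of at least 1 FPKM in 1 group. P-values were adjusted by Benjamini-Hochberg over all 9030 tested genes, at 0.05. A log2 difference on this scale understates the change of low genes. Because FPKM and the deposited group means step in whole reads, read counts were recovered (100% of values whole within 0.05 of a read). They gave 36170767 to 42217558 reads per library on listed genes and were used for the voom alternative. Intervals cover the spread between libraries.

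Alternatives were no filter, a mean of at least 5 FPKM, a pseudocount of 0.1, rescaling by the median of ratios, voom with that same rescaling, the replicate block and leaving out each library. The labels do not say what a shared replicate number means. Deviations from the group means correlated at 0.109, 0.109 and 0.304 for equal numbers and between -0.332 and 0.291 otherwise. These values overlap and do not settle whether equal numbers are pairs. The block treated equal numbers as pairs, as an alternative only. Ratios were compared by exact permutation. Named genes were all 10 members, in each further CC chemokine list the called genes and the 3 with the highest mean, Timd4, Lyz2, and the 5 genes nearest in profile to Ccl2 and to Ccl22. Genes named outside this rule (Ccr2, Zfp36, Retnla and single cell type markers) were chosen after their values were seen. The members and lists were chosen with earlier results of these data known. The fit was also run on simulated counts with independent libraries and the same dispersion for every gene. That setting is simpler than these data, so it says nothing about the calls made here. The values of 1 further receptor gene are not reported here.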

Additional observations from a re-analysis of the deposited data

How the results depend on the processing

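Of 120 member differences under 12 alternatives, 100 kept their direction and side of the threshold, 13 lost the call, 4 gained it and 3 changed sign. The sign changes were Ccl6 without knockout library 3 (-0.064, in a range of -0.064 to 0.37 with 1 library left out) and Ccl22 without knockout library 1 (-0.036) or control library 1 (-0.26, in a range of -0.26 to 0.92). The number of members called higher was 3, 0 with no filter on low values, 4 with the replicate block, rescaling or voom (3.9%, 3.8% and 3.3% of tested genes called higher, against 2.57%), and 0 to 3 with 1 library left out (0 without knockout library 1, knockout library 2 or control library 2). The number called lower was 0, and 0 to 1 with 1 library left out (1 without control library 3). The fit with the replicate block added Ccl4 and changed no other member's call (Ccl24 and Zfp36 aside, which are no members). Further CC ligands called numbered 0, 1 with the replicate block, and 0 to 1 with 1 library left out. Receptors called numbered 1, and 0 to 2 with 1 library left out (2 without control library 3, with Ccr6 added as lower). Induction pathway genes called numbered 4, 2 with no filter, 2 after rescaling, 2 with voom, 5 with the block, and 0 to 5 with 1 library left out (the 5 without control library 3 include Cd14 as lower). The MCP ratio moved from 1.35 to 0.54 with geometric means. Over all genes, 660 were called, 855 with the block, 446 with no filter, 436 at a minimum of 5 FPKM, and 8 (without control library 2) to 1333 (without control library 3) with 1 library left out. Ccl12 and Ccl8 rest on the fewest reads, from 79 and 64 per library. The cause of these changes was not tested.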

Other observations

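The genes whose profile over the 6 libraries lay nearest to that of Ccl2, by the root mean square difference of centred log2(FPKM + 1) among 5459 genes with a mean of at least 5 FPKM, were Ccl12 (0.18), Calhm6 (0.19), Pfkfb3 (0.23), Il15 (0.25) and Il15ra (0.26). Calhm6 encodes a calcium homeostasis modulator channel of macrophages, Pfkfb3 a regulator of glycolysis, and Il15 and Il15ra a cytokine for NK cells and memory T cells and the receptor chain that presents it. Calhm6 was at 48.9, 59.8 and 25.6 FPKM in knockout libraries 1, 2 and 3, against 12.6, 9.85 and 5.77 FPKM in the controls. Il15 was at 51.5, 59.0 and 34.4 FPKM in the knockouts and at 16.3, 17.0 and 10.8 FPKM in the controls. Like Ccl2, both were highest in knockout library 2, lowest among the knockouts in library 3, and without overlap between the groups. Ccl7 came in place 8, Ccl4 in place 106, and Ccl8 in place 5340.

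Nearest to Ccl22 were Gdf15 (0.27), Ctns (0.31), Htra4 (0.31), Apol7c (0.31) and Plxnd1 (0.33). Gdf15, a stress-induced cytokine, was at 209, 165 and 192 FPKM in the knockouts and at 64.2, 113 and 301 FPKM in controls 1, 2 and 3. Ctns encodes the lysosomal cystine transporter and Plxnd1 a semaphorin receptor. All 5, like Ccl22, were lowest in control library 1 and highest in control library 3, with the knockouts between. Among the members Ccl9 came nearest, in place 998.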
